A study of Rattus norvegicus with 11 samples.

Results

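The transcripts of the hypoxia pathway were followed through 6 genes, Hif1a, Cited2, Epas1, Arnt, Vegfa and Slc2a1, in medial prefrontal cortex, where rats that had self-administered heroin were set against yoked saline rats. Every non-control probe of the array that carried 1 of these gene names was included. These 6 of the 35581 names in the arrays' gene name column, which also holds accessions, gave 10 probes of the 41012 non-control probes, 2 for Hif1a, 3 for Cited2, 2 for Vegfa and 1 each for Epas1, Arnt and Slc2a1. Hif1a and Cited2 entered because probe A_44_P397495 of Hif1a and probe A_44_P307980 of Cited2 had been listed as changed on these same rats. Their differences between the groups are therefore given as descriptions, with standard errors (SE) and without a test. The paper also measured both genes by RT-qPCR, on RNA of the same samples. It reports that the array difference was not borne out for either.

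Hypoxia-inducible factors are pairs of proteins that switch on genes when oxygen falls. The alpha subunit, encoded by Hif1a or by its relative Epas1, is made continuously and destroyed in normal oxygen after prolyl hydroxylases mark it for the Vhl ubiquitin ligase. When it escapes this destruction it pairs with Arnt, the constant partner, binds short DNA motifs and recruits the coactivators p300 and CBP. Cited2, itself a target of the factor, competes with the alpha subunit for these coactivators and so limits the response. Vegfa, a growth factor for blood vessels, and Slc2a1, the glucose transporter GLUT1 of the blood-brain barrier, are well known targets. The control of the alpha subunit acts mainly on the protein, which these arrays did not measure.

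All animals were male rats aged 4 months. The heroin group, 6 rats, had licked a spout for intravenous heroin under a fixed ratio 10 schedule in daily 3-hour sessions over 14 days. The yoked saline group, 5 rats here, had been given a saline infusion whenever the matched animal received heroin, and never had the drug. Both groups then spent 14 days in abstinence and were killed directly after a 90-minute extinction session without drug, so both had the same handling, surgery and re-exposure to the chamber. The strain was not given in the sources used here. The methods give 12 arrays with 6 rats per group, and 11 were analysed here, 1 array per rat. The tissue was a block of medial cortex, so a change in RNA per cell and a change in the number of cells of a type cannot be told apart.

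Of the 41012 probes, 28185 to 33835 were well above background on each array and 25555 could be tested. Signals are given as multiples of the array median, that is, the intensity of a probe divided by the median of all non-control probes on the same array. On this scale the median log2 change of all tested probes was 0.18, and it was 0.01 after quantile normalization, which gives every array the same distribution of values. Changes of single probes are therefore given on both scales. A probe counted as past both thresholds where the unadjusted limma p was under 0.02 and the change was at least 1.4-fold. In all, 694 probes, or 2.72% of those tested, were past both thresholds (457 higher and 237 lower in heroin rats), against 218 higher and 239 lower after quantile normalization and 33 higher and 746 lower after scaling to the 75th percentile. The smallest limma adjusted p was 0.263, and none of the 25555 probes had an adjusted p under 0.05 by limma or by the methods' test, while 4723 had an unadjusted limma p under 0.05. Heroin and saline arrays of the same number, 2 to 6, shared a scan. All saline arrays lay at position 3 of their slide and all heroin arrays at position 4, so slide position and group cannot be told apart.

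The probes of Hif1a and Cited2 are shown because their base composition and positions are referred to below. The middle 30 of the 60 bases of each probe are printed, 5′ to 3′, as the array files give them, with G and C in capitals.
Hif1a A_44_P397495: aattGttaaGCCtGGatCatGatGCtGttG
Hif1a A_43_P12423: GttGGGtCtaaCaCtaaCtGtaCtGttttG
Cited2 A_44_P1027846: CttaGtGataGaGatGGGtttGGaCCGCat
Cited2 A_44_P307980: aaGCttGGCaaaCtGCttaatCttGtGGat
Cited2 A_44_P307978: aaGttttCaaatatGCtaaaCtGGaaGatt
Over all 60 bases, both Hif1a probes and Cited2 probes A_44_P307980 and A_44_P307978 had 35% G and C, and Cited2 probe A_44_P1027846 had 50%. In build rn3, the Hif1a probes lay on chromosome 6, at chr6:96466730-96466789 and, 541 bases further along, at chr6:96467271-96467330. The Cited2 probes lay on chromosome 1, in the order A_44_P1027846 (chr1:12722942-12723001), A_44_P307980 (chr1:12723439-12723498) and A_44_P307978 (chr1:12723629-12723688). Whether a probe falls in a coding or a non-coding part of the transcript was not analysed here.

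Both Hif1a probes gave higher signals in heroin than in yoked saline rats, by 0.53 and 0.59 on the log2 scale. At the listed probe A_44_P397495, which is spotted 10 times on each array, heroin rats 1 to 6 read 11.5, 12.3, 11.7, 11.6, 10.1 and 19.1 array medians, and saline rats 2 to 6 read 7.13, 7.18, 9.14, 11.7 and 8.56. The groups overlapped, because saline rat 5 read as high as the middle of the heroin group, and only 2 heroin rats were higher than all saline rats. The means were 12.7 ± 3.22 (SD, n = 6) and 8.74 ± 1.86 (SD, n = 5), which is a log2 change of 0.53 (SE 0.18). Heroin rat 6 stood far above the other 5 heroin rats, and without it the log2 change was 0.41 (SE 0.14), under 1.4-fold.

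At the second Hif1a probe, A_43_P12423, which has 1 spot per array, heroin rats 1 to 6 read 36.2, 38.1, 41.2, 39.3, 35.7 and 82.0 array medians and saline rats 2 to 6 read 24.3, 27.6, 32.5, 34.3 and 26.3. The lowest heroin reading was higher than the highest saline reading, also after quantile normalization. The means were 45.4 ± 18.0 (SD, n = 6) and 29.0 ± 4.22 (SD, n = 5), with a log2 change of 0.59 (SE 0.20). Heroin rat 6 again stood apart from the other 5, and without it the log2 change was 0.40 (SE 0.12). After quantile normalization the changes of the 2 probes were 0.29 (SE 0.15) and 0.34 (SE 0.17), and without heroin rat 6 as well they were 0.17 and 0.18.

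The 10 spots of the listed Hif1a probe agreed closely within an array. Their SD on the log2 scale had a median of 0.09 over the 11 arrays, while the SD between rats was 0.32 in the heroin group and 0.29 in the saline group. The spots of 1 array share its labelling and hybridisation, so their spread does not hold the differences between arrays.

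Cited2 was described by 3 probes, which did not give the same difference. The listed probe A_44_P307980 read 4.53, 4.55, 6.25, 4.53, 5.40 and 6.57 array medians in heroin rats 1 to 6 and 2.53, 2.47, 3.33, 4.39 and 3.35 in saline rats 2 to 6. No heroin rat read below any saline rat, on this scale or after quantile normalization. The means were 5.30 ± 0.92 (SD, n = 6) and 3.22 ± 0.78 (SD, n = 5), with a log2 change of 0.74 (SE 0.17), or 1.67-fold. The change was 0.67 (SE 0.17) without heroin rat 6 and 0.54 (SE 0.15) after quantile normalization.

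The neighbouring Cited2 probe A_44_P307978, which starts 190 bases further along, read 3.56, 3.66, 5.14, 2.94, 5.06 and 3.99 array medians in heroin rats 1 to 6 and 1.88, 2.33, 2.50, 3.96 and 2.89 in saline rats 2 to 6. Heroin rats 3, 5 and 6 were above the saline group, and saline rat 5 lay within the heroin range. The means were 4.06 ± 0.88 (SD, n = 6) and 2.71 ± 0.79 (SD, n = 5), which is a log2 change of 0.60 (SE 0.19) that was the same without heroin rat 6 and 0.43 (SE 0.18) after quantile normalization.

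The third Cited2 probe, A_44_P1027846, starts 497 bases before the listed one and behaved differently. Heroin rats 1 to 6 read 15.4, 16.3, 18.6, 15.6, 12.2 and 8.76 array medians and saline rats 2 to 6 read 10.8, 11.7, 11.4, 17.6 and 11.6. Heroin rat 6, which had the highest reading at the listed Cited2 probe and at both Hif1a probes, had the lowest reading of all 11 rats here, and saline rat 5 lay above 5 of the 6 heroin rats. The means were 14.5 ± 3.46 (SD, n = 6) and 12.6 ± 2.82 (SD, n = 5), which is a log2 change of 0.18 (SE 0.19) that turned to -0.05 after quantile normalization. The log2 difference between this probe and the listed one was 1.43 in heroin rats and 1.98 in saline rats, so their change differed by 0.55 on the log2 scale within the arrays.

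In total, 4 of the 9 member probes that were tested were past both thresholds, both of Hif1a and 2 of Cited2, beside 1.79% of all tested probes higher in heroin rats. At 2 member probes all heroin rats were above all saline rats, beside 1.66% of all tested probes, or 0.36% after quantile normalization. Since the contrast itself chose these genes, nothing is read from these counts. Saline rat 5 had the highest reading of the saline group at all 5 probes of Hif1a and Cited2. Within the 5 scans that held 1 heroin and 1 saline array, the heroin array was higher in 5 of 5 at Cited2 probes A_44_P307980 (log2 differences from 0.30 to 1.34) and A_44_P307978 (0.23 to 1.14). It was higher in 5 of 5 at Hif1a probe A_43_P12423 (0.06 to 1.64), in 4 of 5 at the listed Hif1a probe (-0.21 to 1.16) and in 3 of 5 at Cited2 probe A_44_P1027846. The smallest difference came from the pair numbered 5 at 4 of these probes and from the pair numbered 4 at Cited2 probe A_44_P307978. The share of all tested probes that were higher in 5 of 5 scans was not computed. Their median log2 change on this scale was 0.18, so these scan counts are descriptions only. With the shared number as a block, the same 4 probes were past both thresholds, beside 2.11% of all tested probes higher in heroin rats, with changes of 0.56 and 0.64 for Hif1a and 0.78 and 0.63 for Cited2. Nothing is read from these calls either, since the same rats chose the genes.

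**Figure D1:**
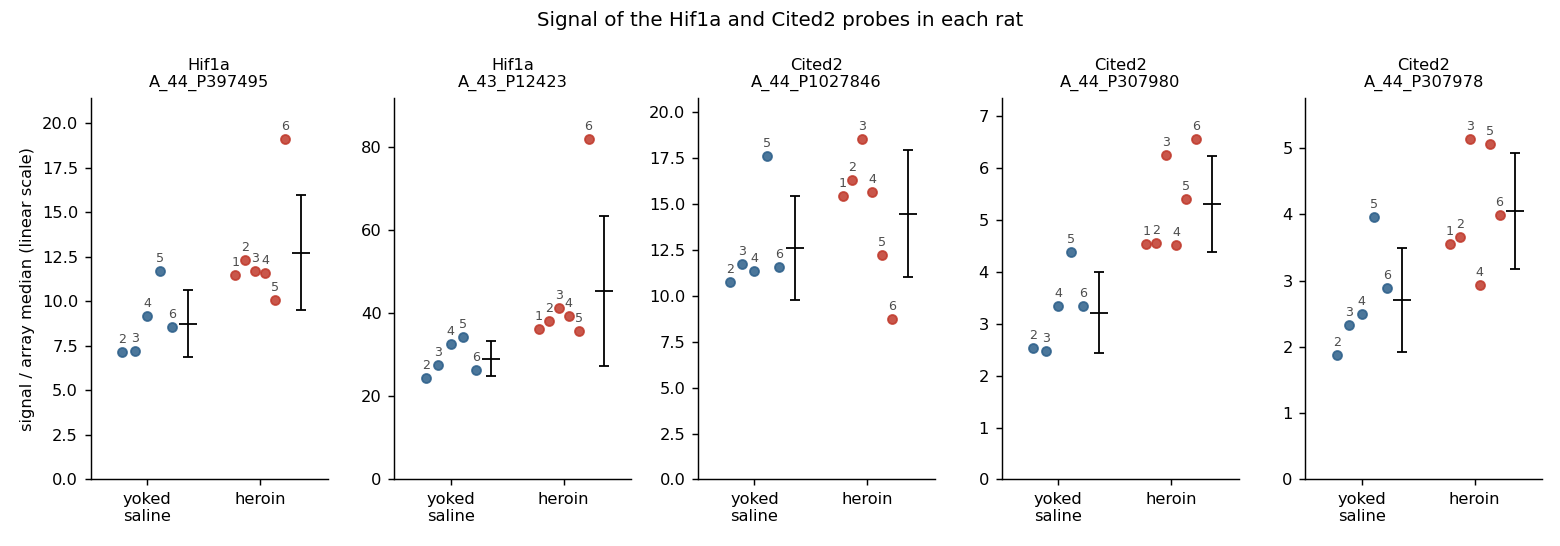
Signal of the 2 Hif1a and 3 Cited2 probes in each rat, as multiples of the array median on linear axes that start at 0, with blue points for the 5 yoked saline rats and red points for the 6 heroin rats, numbered as in the sample labels. Black bars show the mean ± SD, and heroin rat 6 is highest in 3 panels and lowest in the middle one.

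Of the other members of the factor itself, Epas1 did not pass the test and Arnt did not enter it. Epas1, which encodes HIF-2 alpha and in brain is known from endothelium, was read by probe A_44_P177807 on chromosome 6 (rn3, chr6:10295169-10295420), whose 60 bases spread over 252 bases of genome. Heroin rats 1 to 6 read 3.53, 2.66, 3.73, 3.48, 2.61 and 4.34 array medians and saline rats 2 to 6 read 2.58, 2.96, 3.82, 2.61 and 2.39. The groups overlapped over most of their range. The means were 3.39 ± 0.66 (SD, n = 6) and 2.87 ± 0.57 (SD, n = 5), with a log2 change of 0.24 (SE 0.16, limma adjusted p = 0.380) that was 0.05 after quantile normalization and 0.16 without heroin rat 6. An exact permutation test that used all 462 possible groupings gave p = 0.186 (two-sided).

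Arnt, the partner shared by both alpha subunits, was near the detection limit. Its probe A_43_P11561 (chromosome 2, chr2:190348041-190348100) was well above background on 10 of 11 arrays, failing on that of heroin rat 6, and therefore did not enter the test. Heroin rats 1 to 6 read 0.39, 0.42, 0.49, 0.37, 0.53 and 0.24 array medians, and saline rats 2 to 6 read 0.67, 0.66, 0.39, 0.41 and 0.53. The heroin mean of 0.41 ± 0.10 (SD, n = 6) was below the saline mean of 0.53 ± 0.13 (SD, n = 5), but the groups overlapped and the exact permutation p was 0.139 (two-sided). After quantile normalization the exact permutation p was 0.234. The lowest of the 11 readings was again that of heroin rat 6.

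The target genes Vegfa and Slc2a1 did not pass the test at any of their 3 probes. Vegfa probe A_43_P15572, spotted 10 times and spread over 386 bases of chromosome 9 (chr9:10525902-10526287), read 8.46, 6.65, 9.54, 8.31, 6.33 and 10.1 array medians in heroin rats 1 to 6 and 6.43, 8.40, 9.78, 7.67 and 5.92 in saline rats 2 to 6. The 2 groups covered almost the same range. The means were 8.23 ± 1.51 (SD, n = 6) and 7.64 ± 1.55 (SD, n = 5), with a log2 change of 0.11 (SE 0.17, limma adjusted p = 0.674) that turned to -0.12 (SE 0.14) after quantile normalization.

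The other Vegfa probe, A_44_P300751 (chr9:10519066-10519125), read 3.15, 2.41, 3.53, 2.70, 2.69 and 3.17 array medians in heroin rats and 2.41, 2.69, 2.87, 2.96 and 2.13 in saline rats. Its means were 2.94 ± 0.41 (SD, n = 6) and 2.61 ± 0.34 (SD, n = 5), which is a log2 change of 0.17 (SE 0.14, limma adjusted p = 0.438) that was -4.6e-05 (SE 0.10) after quantile normalization. On the median scale both Vegfa changes lay below 0.18, the median of all tested probes.

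Slc2a1, read by probe A_42_P684538 with 10 spots (chromosome 5, chr5:139724005-139724064), had signals of 88.6, 76.9, 82.6, 77.3, 54.5 and 99.9 array medians in heroin rats 1 to 6 and 61.7, 65.6, 95.1, 73.8 and 53.7 in saline rats 2 to 6. Heroin rat 6 was the highest and saline rat 6 the lowest, and these arrays shared a scan. The means were 80.0 ± 15.1 (SD, n = 6) and 70.0 ± 15.8 (SD, n = 5), with a log2 change of 0.20 (SE 0.17, limma adjusted p = 0.475) that turned to -0.06 (SE 0.13) after quantile normalization. As for Vegfa, the spots of 1 array differed far less than the rats did, with a spot SD of 0.055 on the log2 scale at both genes and a spread between rats more than 5 times as large.

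**Figure D2:**
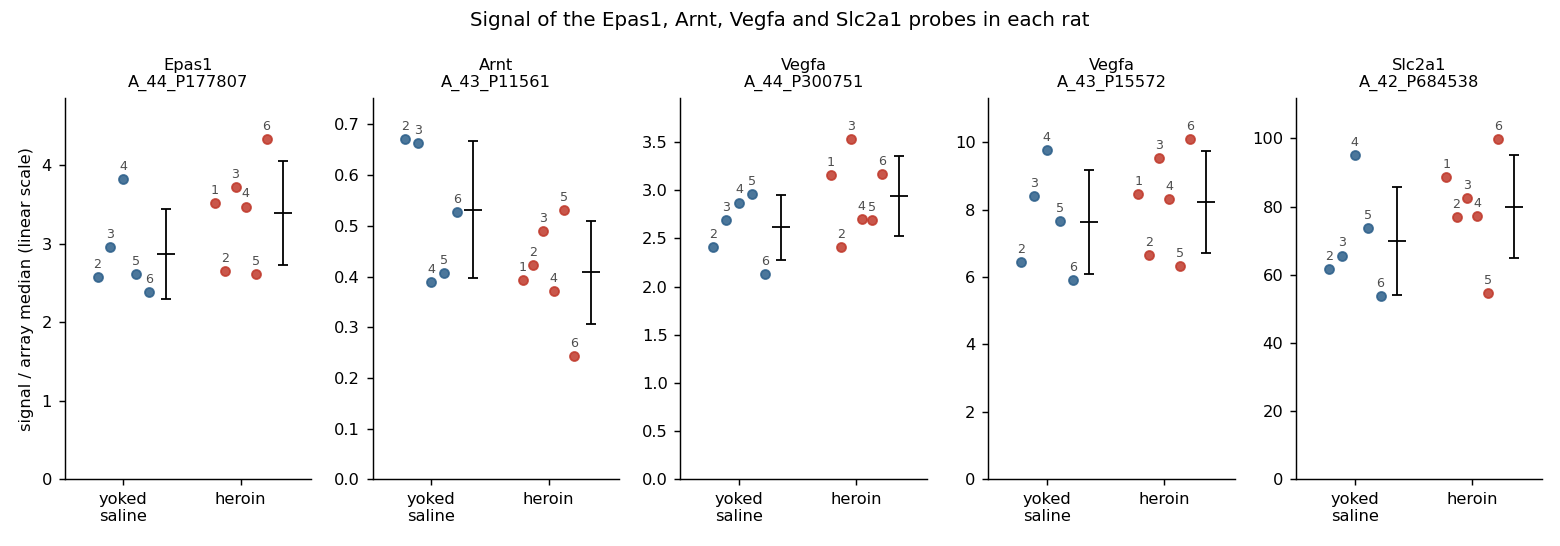
Signal of the Epas1, Arnt, Vegfa and Slc2a1 probes in each rat, as multiples of the array median on linear axes that start at 0, with numbered points for each rat and black bars for the mean ± SD. The ranges of the 5 saline and 6 heroin rats overlap in all 5 panels, and saline rat 4 and heroin rat 6 are high together at Epas1, Vegfa probe A_43_P15572 and Slc2a1.

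How far Hif1a and Cited2 stood out depended on the scale and on heroin rat 6. After quantile normalization only Cited2 probe A_44_P307980 was past both thresholds, beside 0.853% of all tested probes higher in heroin rats, and with heroin rat 6 left out as well no member probe was, beside 0.869%. Without heroin rat 6 on the median scale, both probes of Hif1a fell short of 1.4-fold and the 2 Cited2 probes stayed past both thresholds, beside 2.36% of all tested probes higher in heroin rats. Each Cited2 probe past the thresholds also had a larger change than either Hif1a probe on both scales when heroin rat 6 was left out, with 0.47 and 0.43 against 0.17 and 0.18 after quantile normalization. A test of that difference was not made, since the contrast had chosen both genes.

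**Figure D3:**
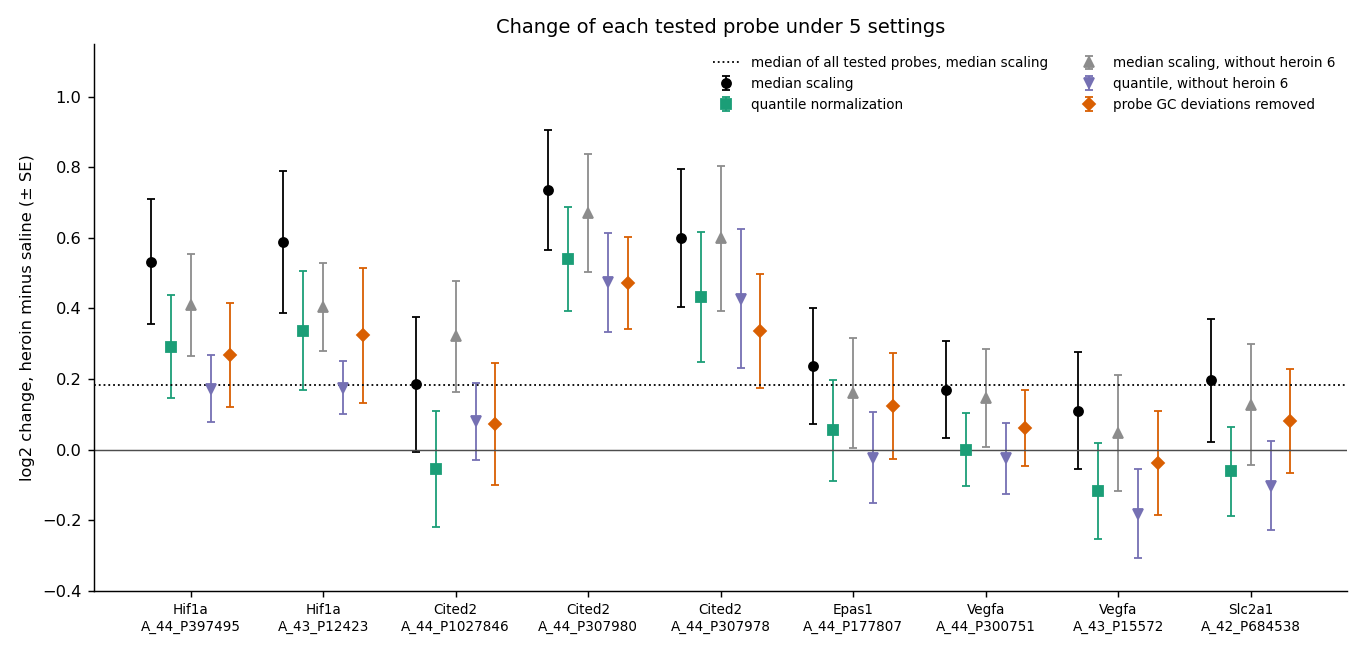
Log2 change, heroin minus saline, of the 9 tested member probes under 5 settings, with bars for the limma SE and a dotted line at 0.18, the median change of all tested probes on the median scale. The Hif1a points fall from 0.53 and 0.59 to 0.17 and 0.18, while Cited2 probe A_44_P307980 stays between 0.47 and 0.74, and the Epas1, Vegfa and Slc2a1 points lie between -0.18 and 0.05 after quantile normalization with or without heroin rat 6.

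The base composition of the probes moved with the change between the groups over the whole array. Among the 4353 tested probes with at most 35% G and C, the median log2 change was 0.29 and 4.89% were past both thresholds and higher in heroin rats. The median was 0.17 among the 8949 probes with over 40% to 45% G and C, of which 1.05% were called higher, and 0.12 among the 2211 probes with over 50% to 55%, of which 0.633% were. The 4 called member probes all had 35% G and C, and the other tested member probes had 43.3% to 55%. With the deviations that depend on probe G and C content removed from each array, which brought the median change of all tested probes to 0.01, the changes were 0.27 and 0.32 for the Hif1a probes and 0.47, 0.34 and 0.07 for Cited2 probes A_44_P307980, A_44_P307978 and A_44_P1027846, and none of the member probes was past both thresholds, beside 0.153% of all tested probes higher in heroin rats (39 higher and 600 lower). The Cited2 probes thus still differed among themselves. The part of base composition in the differences was not tested further.

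**Figure D4:**
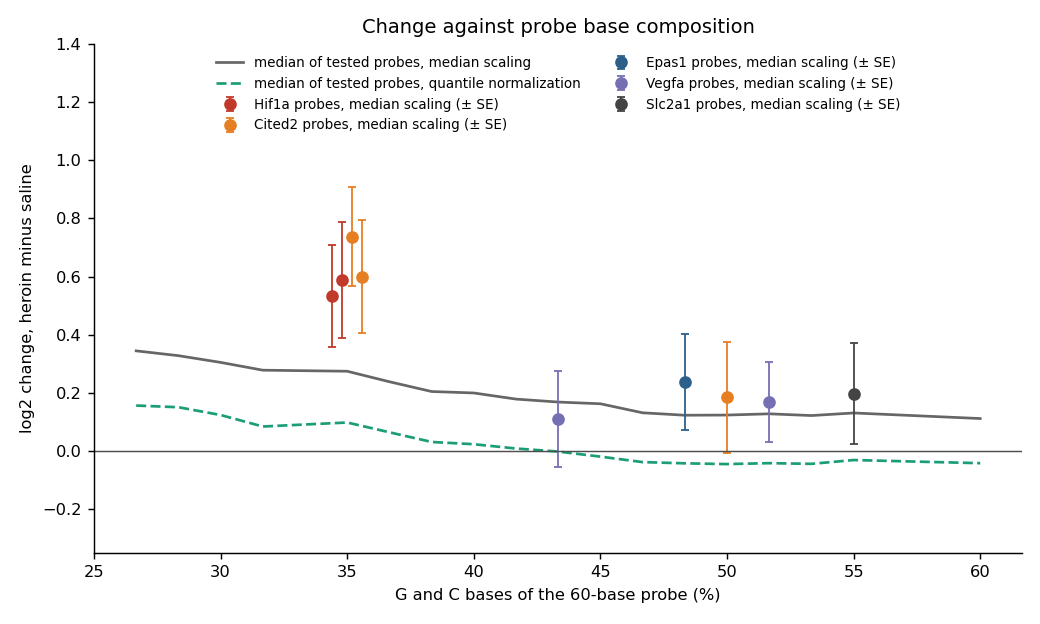
Log2 change, heroin minus saline, against the share of G and C bases in the 60-base probe, with points and SE bars for the tested member probes on the median scale and lines for the median of all tested probes of the same composition (compositions with at least 100 probes). The 4 probes at 35%, shown side by side, lie above the line and the members between 43.3% and 55% lie near it.

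The rest of the pathway was examined in a list of 68 further genes, of which 65 were on the array and 58 were tested, each by its brightest probe. Their median log2 change was 0.21, beside 0.18 for all tested probes, and 0.01 after quantile normalization. On the median scale 49 of the 58 were higher in heroin rats, and after quantile normalization 30 were. Only 1 gene, Nos3, was past both thresholds, beside 2.72% of all tested probes. Nos3 encodes the endothelial nitric oxide synthase and was also on the list of changed genes chosen on these rats, so it is given as a description. It read 4.63, 3.24, 4.16, 4.31, 2.60 and 5.09 array medians in heroin rats 1 to 6 and 2.61, 2.45, 2.80, 2.84 and 2.20 in saline rats 2 to 6. Heroin rat 5 lay within the saline range and the other 5 lay above it. The log2 change was 0.61 (SE 0.17), 0.42 after quantile normalization and 0.53 without heroin rat 6.

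The oxygen sensors and the machinery that degrades the alpha subunit gave 8 tested genes of 9, all 8 higher in heroin rats on the median scale and 4 after quantile normalization, with none past both thresholds. The prolyl hydroxylases Egln1, Egln2 and Egln3 had log2 changes of 0.20, 0.36 and 0.34 (SE 0.14, 0.14 and 0.16), and Vhl, the substrate receptor of the ligase, had 0.40 (SE 0.18). After quantile normalization these 4 changes lay between -0.03 and 0.15. Hif1an, which encodes the asparagine hydroxylase, was not well above background on any array.

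Among the other subunits and the coactivators none passed. Arnt2, the neuronal relative of Arnt, had a log2 change of 0.05 (SE 0.17, limma adjusted p = 0.861), and Hif3a was well above background on 8 of 11 arrays only. The coactivators Crebbp and Ep300, for which Cited2 and the alpha subunit compete, had changes of 0.37 and 0.35 (SE 0.15 for each), or 0.13 and 0.11 after quantile normalization. The Cited2 relatives Cited1 and Cited4 had 0.17 and -0.05 (SE 0.19 for each).

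The 7 tested vascular targets and receptors had the lowest median of the larger lists, 0.02 on the median scale and -0.20 after quantile normalization. The Vegfa receptors Flt1 and Kdr had log2 changes of -0.15 (SE 0.15) and 0.02 (SE 0.21), the vasodilator peptide adrenomedullin (Adm) had -0.01 (SE 0.20), and endothelin 1 (Edn1) had -0.23 (SE 0.23). Epo and Nos2 were not well above background on all arrays and were not tested. Nos3 was thus the only 1 of these 7 with a log2 change beyond 0.25 in size.

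The 18 tested genes of glucose uptake and glycolysis had a median log2 change of 0.25, with 15 of 18 higher in heroin rats on the median scale and 10 of 18 after quantile normalization. Pgk1, phosphoglycerate kinase, had the largest change, with 88.1 ± 8.12 array medians (SD, n = 6) against 64.2 ± 13.4 (SD, n = 5), or 0.47 (SE 0.14, limma adjusted p = 0.263), just under 1.4-fold. Lactate dehydrogenase A (Ldha) had 0.45 (SE 0.18), and the neuronal glucose transporter Slc2a3 had -0.04 (SE 0.14). After quantile normalization Pgk1 and Ldha had 0.23 and 0.20, and the list's median was 0.01.

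Of the 20 other tested targets, 18 were higher in heroin rats on the median scale and 12 after quantile normalization, and none was past both thresholds. The histone demethylase gene Jmjd1a had a log2 change of 0.45 (SE 0.15) and the mitophagy gene Bnip3l had 0.31 (SE 0.12), both with an unadjusted limma p under 0.02 and a limma adjusted p of 0.263. Car12, carbonic anhydrase 12, went the other way. It read 0.88 ± 0.21 array medians (SD, n = 6) in heroin and 1.22 ± 0.21 (SD, n = 5) in saline rats, a log2 change of -0.48 (SE 0.18), with a limma adjusted p of 0.263. After quantile normalization it was the only pathway gene past both thresholds, at -0.50. Pgk1, Jmjd1a, Bnip3l and Car12 were named after their values were seen.

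**Figure D5:**
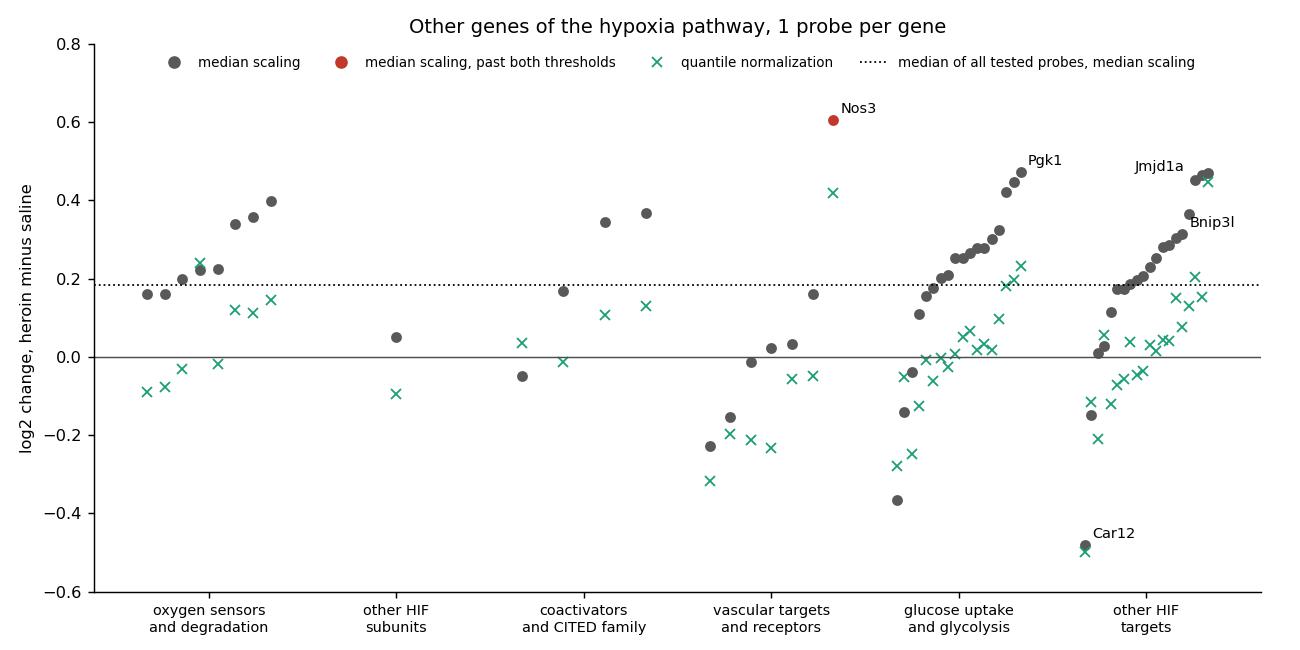
Log2 change, heroin minus saline, of the 58 tested pathway genes by role, with dots for the median scale, crosses for quantile normalization and a dotted line at 0.18, the median of all tested probes on the median scale. Nos3 is the only dot past both thresholds, and after quantile normalization 30 of the 58 crosses lie above 0, of which 1 is in the vascular list.

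Markers of the cell types in the block were read beside these genes. No marker of endothelium (8 of 9 tested), astrocytes (6 of 6), oligodendrocytes (6 of 6), microglia (4 of 5), blood (3 of 4), neurons (5 of 6) or striatum (4 of 5) was past both thresholds, with median log2 changes of 0.02, 0.19, -0.003, 0.20, 0.21, 0.31 and -0.13. After quantile normalization these medians were -0.16, -0.05, -0.25, -0.03, -0.05, 0.10 and -0.30, so those of endothelium, astrocytes, microglia and blood changed sign, and none of the 6 oligodendrocyte markers was above 0. The cortical neuron markers Snap25, Syt1 and Slc17a7 were well above background on all 11 arrays. The summed endothelial signal ranged from 95.6 to 132 array medians in heroin rats and from 74.1 to 123 in saline rats. Beside the 0.61 of Nos3, the log2 changes of the 8 tested endothelial markers ran from -0.28 (Cdh5) to 0.35 (Abcb1a), with 4 of 8 above 0, and after quantile normalization from -0.35 to 0.43, with 2 of 8 above 0. The summed oligodendrocyte signal ranged from 353 to 884 in heroin and from 296 to 925 in saline rats, so this signal varied more than 2-fold between rats of the same group. The part of these markers in the group differences of the member genes was not tested, and some relations from rat to rat are given below.

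Some members followed each other from rat to rat. These relations were computed for all 45 pairs of member probes on quantile-normalized log2 signals over the 11 rats. By the permutation test of Pearson's r, 8 pairs had an adjusted p under 0.05. Of these, 6 were between different genes, and not all of them were positive. Only the pairs of Vegfa probe A_43_P15572 with Epas1 and with Slc2a1 were free of Hif1a and Cited2. The other pairs hold the group difference that chose those 2 genes, so nothing is read from the counts. Epas1 and Vegfa probe A_43_P15572 had Pearson's r = 0.88 (permutation p = 0.00027, adjusted over the 45 pairs p = 0.0101) and Spearman's rho = 0.92 (permutation p = 0.00015, adjusted p = 0.00675). Without the 2 rats farthest from the Epas1 median, saline rat 5 and heroin rat 6, r was 0.92, and it was 0.96 after the group means were removed. Neither gene had passed the test between the groups. The other Vegfa probe, A_44_P300751, had r = 0.62 with Epas1 (permutation p = 0.0409, adjusted p = 0.153) and rho = 0.78 (permutation p = 0.00629, adjusted p = 0.0492), with r = 0.66 without the same 2 rats.

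Slc2a1 had relations of the same sign. Against Vegfa probe A_43_P15572 it had r = 0.75 (permutation p = 0.00584, adjusted p = 0.0375) and rho = 0.77 (permutation p = 0.00739, adjusted p = 0.0492), and r was 0.70 without the 2 rats farthest from the Vegfa median. Against Vegfa probe A_44_P300751 it had r = 0.40 (permutation p = 0.224, adjusted p = 0.458) and rho = 0.64 (permutation p = 0.0404, adjusted p = 0.182). Against Epas1 it had r = 0.73 (permutation p = 0.0113, adjusted p = 0.0565) and rho = 0.77 (permutation p = 0.00761, adjusted p = 0.0492). Like the means of the other marker lists, the mean of the 8 endothelial markers was computed per rat. It had r = 0.69 with Vegfa probe A_43_P15572 (permutation p = 0.0218, adjusted over 70 relations p = 0.348), with r = 0.42 without the 2 rats farthest from the Vegfa median. It had r = 0.62 with Slc2a1 (permutation p = 0.0388, adjusted p = 0.348), or 0.01 without 2 rats, and r = 0.45 with Epas1 (permutation p = 0.160, adjusted p = 0.493), or 0.82 without 2 rats. With the other Vegfa probe, A_44_P300751, the endothelial mean had r = 0.32, or -0.08 without 2 rats. Each endothelial value thus moved when 2 rats were left out. Other lists gave values of similar size. The oligodendrocyte mean had r = 0.70 with Vegfa probe A_44_P300751, or 0.72 without 2 rats. Epas1 had r = -0.63 with the neuron mean and -0.66 with the striatum mean, or -0.53 and -0.52 without 2 rats. None of the 70 relations passed the adjustment. Those of Hif1a and Cited2 hold the difference that chose them and are not given. The arrays' own quality is shared by all probes of a rat, and its part in these relations was not tested.

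For Hif1a and Cited2 the relation across all rats includes the difference that chose them, so values within the groups are described. Values across rats are given here only where 2 rats were left out. With group means removed, the 2 Hif1a probes had r = 0.88, a value that includes the high readings of heroin rat 6 at both. Cited2 probes A_44_P307980 and A_44_P307978 had r = 0.79 with group means removed. Cited2 probe A_44_P1027846 followed neither, with r = -0.30 and 0.11. The listed probes of Hif1a and Cited2 had r = 0.65 with group means removed, the highest of the Hif1a and Cited2 pairs. The others had 0.57, 0.21 and 0.13, and, against Cited2 probe A_44_P1027846, -0.64 and -0.83 for the 2 Hif1a probes. These last 2 relations were -0.88 and -0.90 in the heroin group alone and 0.52 and -0.23 in the saline group alone. Without the 2 rats farthest from the Hif1a median, heroin rat 6 among them, r across the other rats was 0.56 and 0.01. Among the 6 pairs between genes counted above across all rats, the listed Hif1a probe with Arnt and Cited2 probe A_44_P1027846 with Epas1 were negative. With group means removed their r was -0.82 and -0.72. Arnt was near the detection limit, and heroin rat 6 was the highest or lowest of the 11 rats at each of these probes.

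The probes of other named genes whose pattern over the 11 rats was most like that of the listed Hif1a probe, among 25252 probes without missing values, were those of Slc39a6, Pctk2 and Rpn1, with r = 0.96, 0.95 and 0.95. For the listed Cited2 probe they were Vcpip1, Mark1 and Slc3a1, with r = 0.96, 0.95 and 0.94. The log2 changes of these 6 probes lay between 0.40 and 0.49, and between 0.14 and 0.34 after quantile normalization. The r values over the 11 rats hold the group difference that chose the listed probes. With group means removed they were 0.94, 0.94 and 0.98 for Hif1a and 0.89, 0.89 and 0.87 for Cited2, in the same order. As the most alike of so many, these 6 probes are given as descriptions.

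The motifs that hypoxia-inducible factors are known to bind were looked for at the starts of the member genes, in RefSeq windows of 300 bases (build GRCr8), on both strands and as the letters ACGTG and GCGTG. Of all 33469 such windows, 41.6% held at least 1 of these and 19.3% held ACGTG. Hif1a, Cited2 and Slc2a1 each held ACGTG, Arnt held GCGTG, and the windows of Epas1 and Vegfa held none of these letters. Slc2a1 also held GCGTG on the other strand, as CACGC at -153, -76 and -16. Sequence outside the windows was not searched, so the lack of a motif holds for the windows only. The stretches below show ACGTG in Hif1a (at bases -228 and -164 from the start), Cited2 (at -159) and Slc2a1 (at -51), with the motif in capitals.
Hif1a, first: acagacgagcACGTGagctgggcag
Hif1a, second: gctgagagcaACGTGggctggggtg
Cited2: gccgctgcgcACGTGcagcgcggac
Slc2a1: cccgccccggACGTGgtcctcaggc
In the first Hif1a stretch and in that of Cited2 the motif overlaps its own reverse complement, CACGT, by 4 bases. These letters are a description of the windows, and the arrays did not measure binding.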

How the data were processed

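The authors labelled 500 ng of total RNA per rat with Cy3 and hybridised it to single-colour Agilent whole rat genome arrays. For each spot they deposited a background-corrected intensity from Agilent's Feature Extraction software, version 9.5.1.1 per the headers of the files, not scaled between arrays, and for each probe a relative value, a ratio around 1 made in GeneSpring, used here only as an alternative.

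Spots with a non-uniformity or population outlier mark were dropped, intensities below 5 were set to 5, spots of a probe were averaged on the log2 scale, and each array was centred on its 50th percentile. Probes well above background on all 11 arrays, with a usable spot on at least 2 arrays per group, were tested with limma 3.58.1 (lmFit and eBayes, R 4.3.3; two-sided), and p-values were adjusted by Benjamini-Hochberg over all 25555. An exact permutation test was added for single probes, whose smallest possible p is 0.00216. Correlations used 100000 permutations. The fits were tested on simulated data. The number of arrays limits the precision.

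Described were every member probe, each pathway gene past both thresholds, and the 3 named genes most like Hif1a and Cited2. The members and gene lists were chosen with earlier results of these data known. The deviations of same-numbered rats from their group means had r of 0.38, -0.13, 0.35, 0.02 and -0.24 (numbers 2 to 6), so the number was used as a block only as an alternative. Other alternatives were the scaling, the background correction, the filters, the methods' test (Welch's, on log2 values) and leaving out each rat.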

Additional observations from a re-analysis of the deposited data

Results flagged for a closer look

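A single rat stood far from the rest of its group at 3 of the probes described. Among the 20 groups of 5 or 6 rats examined (10 probes in 2 groups), chance alone would mark about 1 in 20 if the groups were independent. They are not, since the same 11 arrays gave all 10 probes, so the 3 marks are not compared with chance. At Hif1a probe A_44_P397495 heroin rat 6 read 19.1 array medians, and its gap to the next heroin rat was 0.685 of the whole range of the group on the log2 scale. At Hif1a probe A_43_P12423 the same rat read 82.0, with a gap of 0.828 of the range. At Cited2 probe A_44_P1027846 saline rat 5 read 17.6, with a gap of 0.825 of the range to the next saline rat. The array of heroin rat 6 had 28185 probes well above background, the fewest of the 11, and the lowest detection limit, an intensity of 13.3 against 14.4 to 20.8 on the others. The array of saline rat 5 had 31159 such probes and 209 marked spots, within the range of the others.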

How the results depend on the processing

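The calls of the member probes depended on scaling. The 694 probes past both thresholds (457 higher in heroin rats) became 457 (218) after quantile normalization, 126 (122) with normexp background correction, 308 (216) with the methods' test and 215 genes (124) with probes averaged. Without a detection filter they became 1560 (475 higher and 1085 lower). Scaling to the 75th percentile gave 33 higher and 746 lower, and removal of G and C deviations gave 39 higher and 600 lower. The 4 member probes became 1, 1, 2, 2 and 0 after quantile normalization, 75th percentile scaling, normexp, the methods' test and removal of G and C deviations. With probes averaged, 2 genes passed, Hif1a at 0.56 and Cited2 at 0.51. The 1 pathway gene became 0 with normexp and 2 with G and C deviations removed or probes averaged. Quantile normalization together with the replicate block gave 410 (209) probes, 1 member probe and 0 pathway genes, and together with leaving out heroin rat 6 gave 393 (222), 0 and 0. Both combinations and the G and C correction were chosen after seeing the data. The cause of these shifts was not tested.

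Direction turned at probes that had not passed. Cited2 A_44_P1027846 had -0.034 after 75th percentile scaling, -0.054 after quantile normalization and -0.071 with the replicate block added. Vegfa A_44_P300751 had -0.048, -4.6e-05 and -0.015, Vegfa A_43_P15572 had -0.11, -0.12 and -0.12, and Slc2a1 had -0.021, -0.062 and -0.093 under the same 3 settings. Without heroin rat 6 and after quantile normalization, Epas1 had -0.024, Vegfa A_44_P300751 -0.024, Vegfa A_43_P15572 -0.18 and Slc2a1 -0.10. With G and C deviations removed, Vegfa A_43_P15572 had -0.039.

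Leaving out 1 rat at a time gave 343 (without saline rat 2) to 2352 (without saline rat 5) probes past both thresholds, 238 to 1615 of them higher, 1 to 4 member probes and 1 to 7 pathway genes. The 7 arose without saline rat 5. Cited2 A_44_P307980 kept its call in each case, at 0.65 to 0.86. Hif1a A_44_P397495 lost it without saline rat 2, saline rat 3 or heroin rat 6, and A_43_P12423 also without saline rat 6. Cited2 A_44_P307978 lost it without saline rat 2, saline rat 3 or heroin rat 3. The contrast on these rats had chosen Hif1a and Cited2, so their kept and lost calls are descriptions only. The replicate block on the median scale gave 805 probes (539 higher) and the same 4 member probes. The slides hold the same pairs as the replicate numbers, so a slide block is the same fit. Only number 4 correlated best with its own number. Scaling before the floor, keeping marked spots and the authors' relative values kept the direction of each member probe they held.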
